A study of Mus musculus with 9 samples.

Results

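Trim71, the mouse gene for the RNA-binding protein LIN41, and 8 mRNAs that other work has described as its targets were followed across control, Pfkp knockdown and Lin41 knockdown embryoid bodies. The 9 genes were Trim71, Cdkn1a, Rbl1, Rbl2, Foxj3, Psme3, Mbnl1, Mbnl2 and Mbnl3. They were picked by symbol from the 22322 genes listed in the deposited tables, and all 9 passed the filter on low counts. Each of the 9 was measured by RNA-seq in 9 libraries from the mouse embryonic stem cell line R1. All cells were labelled wild type and carried a hairpin: a control (sh-ctrl), one against Pfkp, the platelet isoform of phosphofructokinase (sh-Pfkp), or one against Lin41 (sh-Lin41), with 3 libraries each. The cells of every group had been kept in suspension without the self-renewal cytokine LIF for 6 days, which lets them gather into embryoid bodies and begin to differentiate. In the series title Pfkp is named as a kinase of Lin41, so sh-Lin41 against sh-ctrl asks how the target mRNAs respond to less Trim71, and sh-Pfkp against sh-ctrl asks the same for less Pfkp. The labels name 1 hairpin for each target and no second hairpin or rescue. Whether libraries of the same group are separate cultures is not in the labels, so each p-value reflects library-to-library spread alone, which may be technical.

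TRIM71 belongs to the TRIM-NHL family, whose NHL domain binds RNA. It is high in the early embryo and in pluripotent cells, it lowers the translation or the stability of mRNAs that it binds, often through a hairpin or other site in the 3′ UTR, and it is itself a classic target of the let-7 microRNAs that accumulate as cells differentiate. Among the mRNAs described as bound or repressed by it are Cdkn1a, which encodes the cyclin-dependent kinase inhibitor p21, and Rbl1 and Rbl2, which encode the pocket proteins p107 and p130 that restrain E2F factors. The others are Foxj3, a forkhead transcription factor, Psme3, an activator of the nuclear proteasome, and the muscleblind genes Mbnl1, Mbnl2 and Mbnl3, whose proteins set alternative splicing patterns of differentiated cells.

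The libraries held 15495194 to 20607683 counts. Pfkp itself stood at 245.0 to 248.3 CPM (read counts relative to the TMM-scaled library size) in sh-ctrl, at 101.2 to 104.9 in sh-Pfkp and at 221.8 to 232.6 in sh-Lin41, as the labels say. The 12 stem cell markers examined were all at 10 CPM or more in every group. Their summed level was 5924 to 6003 CPM in sh-ctrl, 5586 to 5640 in sh-Pfkp and 6739 to 6768 in sh-Lin41. Not every member followed this sum. Lin28a averaged 299.4 CPM in sh-ctrl, 348.1 in sh-Pfkp and 229.1 in sh-Lin41, and Sox2 averaged 329.4, 387.6 and 411.5. Of the 6 markers of primitive streak and mesoderm, 5 were under 1 CPM in every group. The other was at 10 CPM or more in sh-ctrl and in sh-Pfkp. Together the 6 summed to 15.87 to 17.13 CPM in sh-ctrl, 11.63 to 11.79 in sh-Pfkp and 10.08 to 10.47 in sh-Lin41. Of the 6 endoderm markers, 4 were under 1 CPM in sh-ctrl. Their sums were 3.948 to 5.946, 3.374 to 4.41 and 4.35 to 5.982 CPM, in the same order of groups. The endoderm marker Afp was at 0 in all 3 groups, where 0 means at most 3 counts in a library by counting error alone. Summed markers of other lineages also differed between groups. The 12 fibroblast or stromal markers summed to 14.25 to 15.66 CPM in sh-ctrl, 36.1 to 40.64 in sh-Pfkp and 10.42 to 12.72 in sh-Lin41, with Dcn, Lum and Postn at 0 in sh-ctrl and sh-Lin41 and none at 0 in sh-Pfkp. The 8 neuroectoderm and neuron markers summed to 168.5 to 171.3, 162.1 to 170.3 and 142.4 to 143.0 CPM, in the same order of groups. They did not all follow the sum: 4, 5 and 5 of them were at 10 CPM or more, and Sox1 averaged 8.02, 13.55 and 17.23 CPM. The 13 mitochondrially encoded mRNAs summed to 50800 to 52730, 67850 to 70280 and 71100 to 73820 CPM. The part of these shifts in the results that follow was not tested. In bulk RNA, fewer cells of a type and less RNA per cell cannot be told apart.

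Trim71 (ENSMUSG00000079259) was lowest in sh-Lin41 and highest in sh-Pfkp. Its CPM was 273.0, 263.7 and 269.7 under the control hairpin, 165.1, 157.7 and 155.9 under the Lin41 hairpin, and 349.6, 359.9 and 347.2 under the Pfkp hairpin. The 3 groups did not overlap. With the Lin41 hairpin Trim71 mRNA stood at 0.594 times control (95% interval 0.572 to 0.616), a log2 fold change of -0.75 (SE 0.0257, n = 3 per group, edgeR adjusted p = 1.32e-21). The protein was not measured. With the Pfkp hairpin Trim71 rose 1.31-fold (95% interval 1.27 to 1.36, log2 0.39, SE 0.0238, edgeR adjusted p = 4.06e-15). Set against each other, sh-Pfkp had 2.21 times the Trim71 mRNA of sh-Lin41 (edgeR adjusted p = 1.60e-26). All 3 calls held under each of the 20 alternative analyses tried.

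The let-7 sites of the Trim71 3′ UTR are shown because they are the best known control of this mRNA. In the GENCODE M21 transcript ENSMUST00000111816, with a 3′ UTR of 5512 bases, the letters CTACCTC, the reverse complement of the let-7 seed, occurred 4 times. Only the mRNA strand was searched. Of the 830 mouse 3′ UTRs of similar length 30% held at least 1 such match, and of all 20998 examined 8.95% did. The mature microRNAs, from RefSeq (GRCm38.p6), follow with the seed (bases 2 to 8) in capitals, and then the 4 UTR stretches on the minus strand of chromosome 9 (GRCm38), 5′ to 3′, with the match in capitals.
let-7a-5p: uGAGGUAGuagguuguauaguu
let-7g-5p: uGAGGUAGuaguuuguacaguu
Trim71 UTR base 166, chr9:114512472-114512494: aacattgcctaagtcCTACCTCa
Trim71 UTR base 262, chr9:114512376-114512398: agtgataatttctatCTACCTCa
Trim71 UTR base 3591, chr9:114509047-114509069: tttagtatggattttCTACCTCa
Trim71 UTR base 3617, chr9:114509021-114509043: ttggcaaaaagttgtCTACCTCa
In the 1 annotated 3′ UTR searched for each of the 8 targets, the same letters were found in that of Mbnl3, at 1 place, where 19.8% of UTRs of similar length held at least 1, and not in those of the other 7. A match is a description of the sequence. MicroRNAs were not measured in these libraries.

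**Figure D1:**
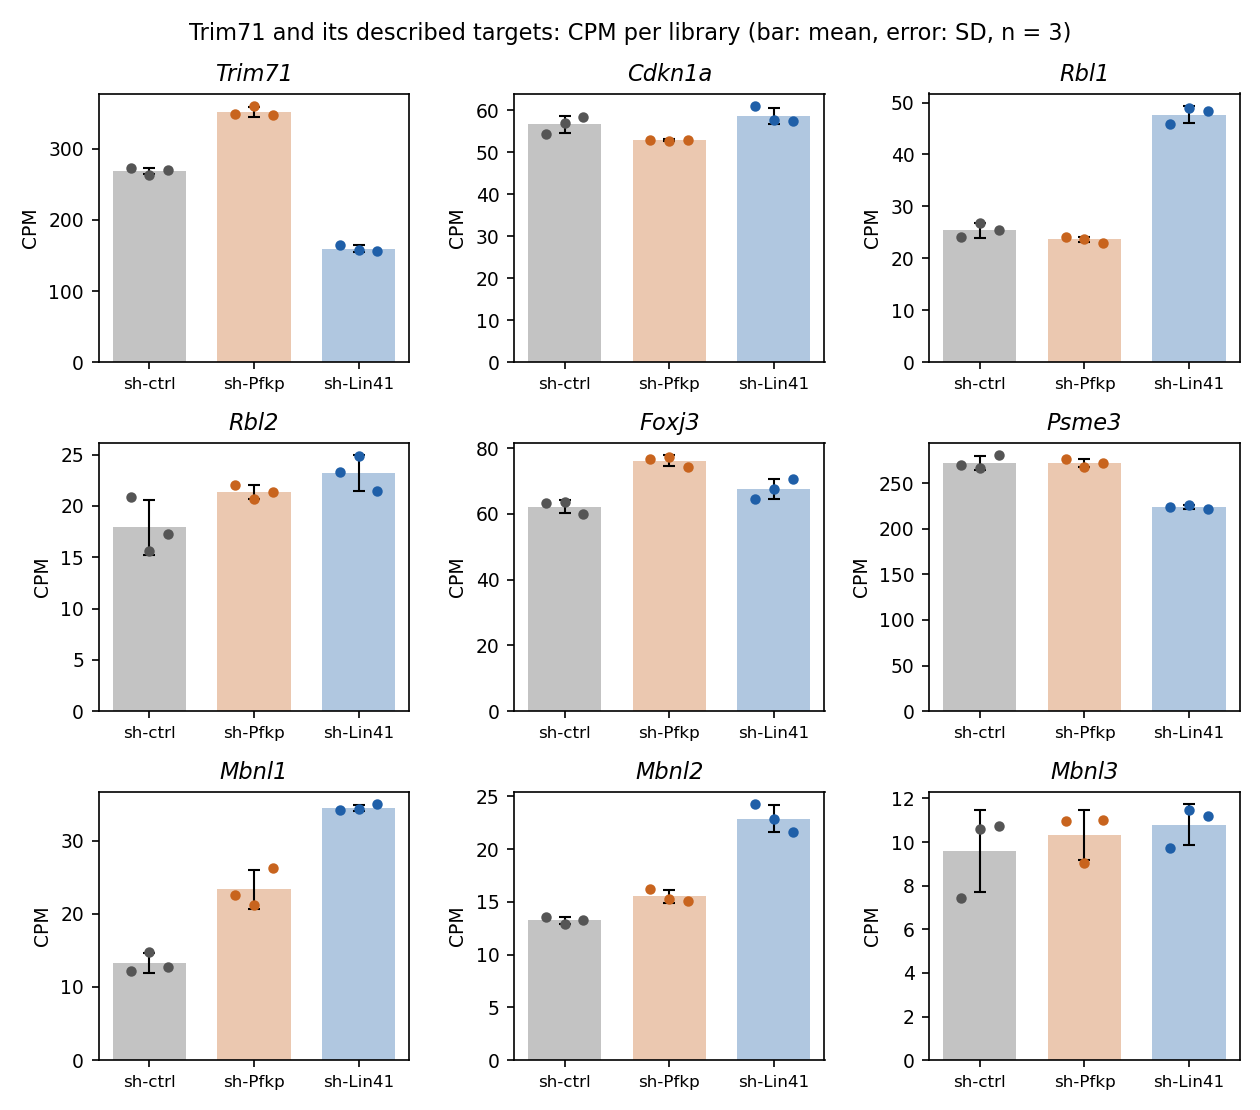
CPM of Trim71 and the 8 described targets in the 9 libraries (points), with the group mean (bar) and SD (n = 3 per group), by hairpin; each panel has its own axis from 0. Trim71 is lowest in sh-Lin41 (155.9 to 165.1 CPM) and highest in sh-Pfkp (347.2 to 359.9 CPM), and Rbl1, Mbnl1 and Mbnl2 are highest in sh-Lin41.

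Of the 8 described targets, 5 rose with the Lin41 hairpin (Rbl1, Rbl2, Foxj3, Mbnl1 and Mbnl2), 1 fell (Psme3) and 2 were not called (Cdkn1a and Mbnl3). Across all 13158 genes tested, 26.9% were called higher and 27.3% lower in that comparison. With the Pfkp hairpin 4 rose (Rbl2, Foxj3, Mbnl1 and Mbnl2), 1 was called lower (Cdkn1a) and 3 were not called, where 28.3% of all genes were called higher and 28.3% lower. The median log2 fold change of the 8 was 0.27 in sh-Lin41 and 0.17 in sh-Pfkp, against 0.004 and -0.005 for all genes. The median size of the change, leaving out its sign, was 0.33 in sh-Lin41 against 0.20 for all genes, and 0.17 in sh-Pfkp against 0.21. Both comparisons use the same 3 sh-ctrl libraries. Between the knockdowns, sh-Pfkp was higher than sh-Lin41 for 2 targets (Foxj3 and Psme3) and lower for 4 (Cdkn1a, Rbl1, Mbnl1 and Mbnl2), beside 27.4% and 27.8% of all genes.

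**Figure D2:**
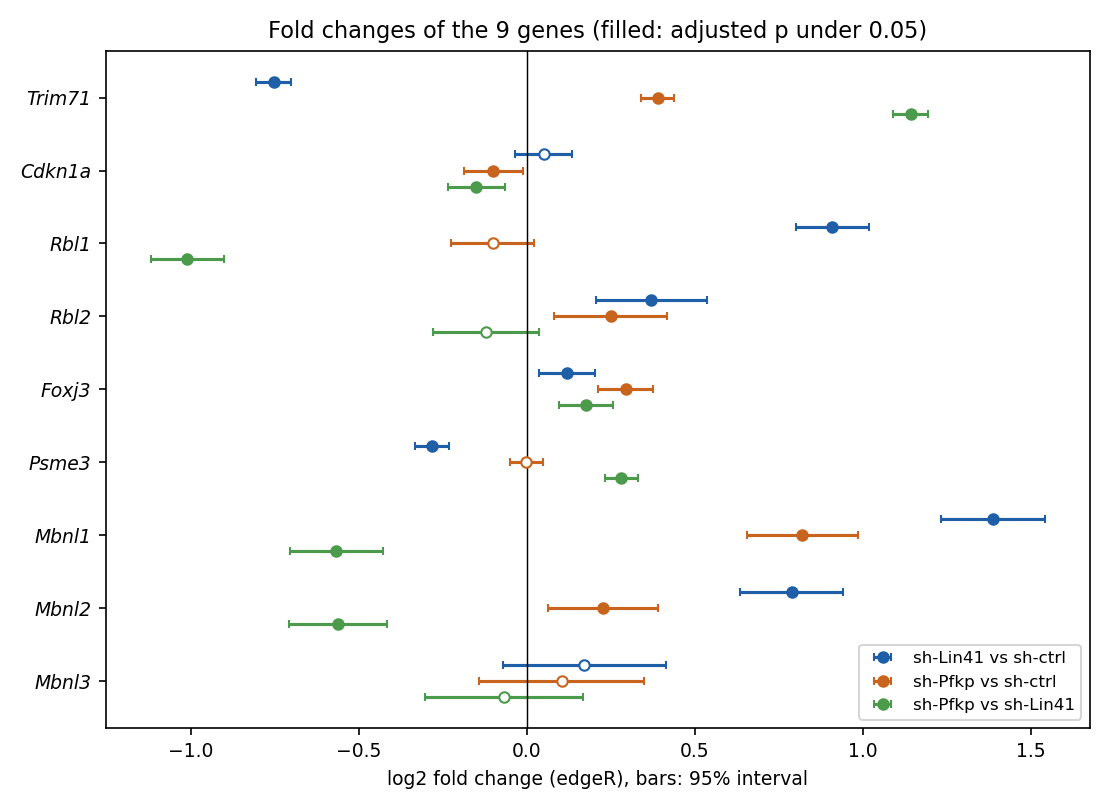
Fitted log2 fold change (x axis) with its 95% interval for each of the 9 genes (y axis) in the 3 comparisons, with filled points for an edgeR adjusted p under 0.05. Mbnl1 (1.39), Rbl1 (0.91) and Mbnl2 (0.79) lie farthest to the right for sh-Lin41 against sh-ctrl, and Trim71 (-0.75) farthest to the left.

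The muscleblind genes Mbnl1 and Mbnl2 had 2 of the 3 largest rises among the targets in the Lin41 knockdown. Mbnl1 (ENSMUSG00000027763), whose protein promotes splicing patterns of differentiated tissue, measured 12.1, 14.8 and 12.8 CPM under the control hairpin, 34.2, 34.25 and 34.96 under the Lin41 hairpin and 22.6, 21.2 and 26.2 under the Pfkp hairpin. No library of one group reached those of another, and the order was sh-ctrl, sh-Pfkp, sh-Lin41. Mbnl1 rose 2.62-fold with the Lin41 hairpin (log2 1.39, SE 0.0761, edgeR adjusted p = 2.29e-16) and 1.77-fold with the Pfkp hairpin (log2 0.82, SE 0.0814, edgeR adjusted p = 3.85e-10). Only 1.89% of the genes tested had a larger fold change than Mbnl1, in either direction, in sh-Lin41. The difference between the knockdowns was itself called, at -0.57 for sh-Pfkp against sh-Lin41 (SE 0.0677, edgeR adjusted p = 1.59e-08). The log2 ratios in the authors' deposited table follow mean FPKM, not the counts used for the fold changes above. There Mbnl1 had a log2 ratio of 1.54 in sh-Lin41 (FDR 1.91e-43) and was the only one of the 9 past 1 in either direction. Beside this, the summed stromal markers given above were lowest in sh-Lin41 and highest in sh-Pfkp, and their part in the Mbnl1 result was not tested.

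Mbnl2, a second muscleblind splicing factor, measured 13.6, 12.9 and 13.3 CPM under the control hairpin, 24.2, 22.8 and 21.6 under the Lin41 hairpin and 16.2, 15.3 and 15.1 under the Pfkp hairpin. The 3 groups again did not overlap. Mbnl2 rose 1.73-fold with the Lin41 hairpin (log2 0.79, SE 0.0751, edgeR adjusted p = 1.40e-10). The rise with the Pfkp hairpin was smaller (log2 0.23, SE 0.0801, edgeR adjusted p = 0.0165), and that call was lost with library totals as the only scaling (adjusted p = 0.0577), with limma on log2(FPKM + 1) (adjusted p = 0.0843) and without sh-Pfkp replicate 1 (log2 0.20, edgeR adjusted p = 0.0653). Mbnl3, the X-linked member, measured 7.44, 10.6 and 10.75 CPM under the control hairpin, 9.74, 11.5 and 11.2 under the Lin41 hairpin and 10.95, 9.03 and 11 under the Pfkp hairpin, with all groups overlapping. It was not called in any comparison. Its log2 fold change was 0.17 in sh-Lin41 (95% interval -0.07 to 0.41) and 0.10 in sh-Pfkp (-0.14 to 0.35), so rises of the size seen for Mbnl1 or Mbnl2 in sh-Lin41 lay outside its interval. Without sh-ctrl replicate 1, the lowest library, the sh-Lin41 value was 0.01 (edgeR adjusted p = 0.942) and the sh-Pfkp value -0.05.

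Summed over the 3 muscleblind genes on the per-length FPKM scale, the level was 8.15, 8.63 and 9.32 in sh-ctrl, 11.8, 11.07 and 12.07 in sh-Pfkp and 16.92, 17.27 and 16.56 in sh-Lin41. Their make-up moved as well. Mbnl1 gave 33.4% ± 1.27 of the sum in sh-ctrl, 42.5% ± 1.59 in sh-Pfkp and 49.9% ± 0.749 in sh-Lin41 (SD, n = 3), while the share of Mbnl3 was 31.2% ± 4.06, 26.5% ± 0.914 and 18.8% ± 1.78. The share of Mbnl2 was 35.4%, 30.9% and 31.4%. Near equal in the control, the 3 genes were thus led by Mbnl1 in both knockdowns on this scale. FPKM also depends on the length given to a gene. For Mbnl1 that length averaged 4626 bases in sh-ctrl, 4602 in sh-Pfkp and 4127 in sh-Lin41, with sh-ctrl and sh-Lin41 libraries overlapping. Its part in the shares was not tested.

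**Figure D3:**
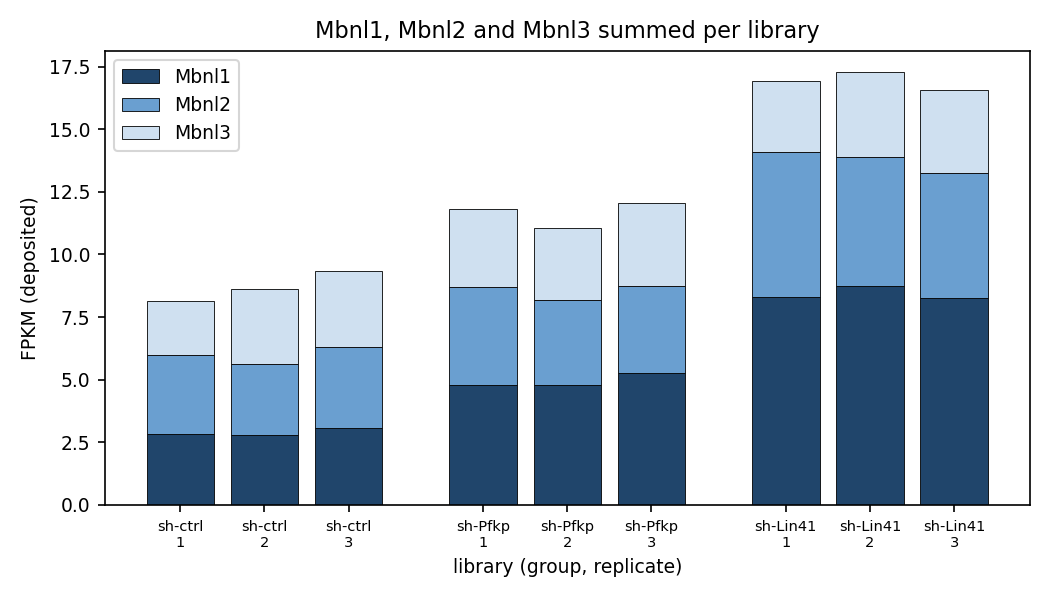
Deposited FPKM of Mbnl1, Mbnl2 and Mbnl3 stacked for each of the 9 libraries (x axis: group and replicate; y axis: FPKM). The sum is 8.15 to 9.32 in sh-ctrl, 11.07 to 12.07 in sh-Pfkp and 16.56 to 17.27 in sh-Lin41, and the Mbnl1 section grows most.

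Of the cell-cycle brakes, Rbl1 rose most with the Lin41 hairpin. Rbl1 (ENSMUSG00000027641), the gene for p107, measured 24.0, 26.85 and 25.4 CPM under the control hairpin, 45.85, 48.9 and 48.3 under the Lin41 hairpin and 24.1, 23.8 and 23.0 under the Pfkp hairpin. The sh-Lin41 libraries stood far above both other groups, which overlapped each other. Its log2 fold change was 0.91 in sh-Lin41 (SE 0.0537, edgeR adjusted p = 1.47e-15) and -0.10 in sh-Pfkp (95% interval -0.22 to 0.02, edgeR adjusted p = 0.158). The sh-Pfkp value was called lower with upper-quartile scaling (log2 -0.14, adjusted p = 0.0471) or with library totals only (log2 -0.15, adjusted p = 0.0355). The knockdowns differed from each other by -1.01 for sh-Pfkp against sh-Lin41 (SE 0.0535, edgeR adjusted p = 1.11e-16).

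Rbl2, the gene for p130, measured 20.9, 15.6 and 17.3 CPM under the control hairpin, 23.3, 24.9 and 21.4 under the Lin41 hairpin and 22.1, 20.7 and 21.4 under the Pfkp hairpin. The sh-Lin41 libraries lay above all controls, whereas 1 sh-Pfkp library lay below the highest control. Rbl2 rose by a log2 of 0.37 in sh-Lin41 (SE 0.081, edgeR adjusted p = 0.000249) and 0.25 in sh-Pfkp (SE 0.0827, edgeR adjusted p = 0.0109). The sh-Pfkp call rested on the control libraries: it was 0.38 without sh-ctrl replicate 1 and 0.17 without sh-ctrl replicate 2 (edgeR adjusted p = 0.0994), and it was also lost with limma on log2(FPKM + 1) (adjusted p = 0.111). Between the knockdowns Rbl2 was not called (log2 -0.12, 95% interval -0.28 to 0.04). In GENCODE M21 an exon of Rbl2 overlaps Aktip on the opposite strand. Aktip had 7392 counts over the 9 libraries and Rbl2 had 3485. Without the strand setting, which no source used here gives, reads from the overlapping stretch cannot be told apart. The length of that stretch was not measured, so the Rbl2 values are uncertain. Exons of Trim71, Cdkn1a and Mbnl2 also overlap genes annotated on the opposite strand, which were not analysed here.

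Cdkn1a, the gene for p21, was the most abundant of the 3 brakes per length, and it was not called with the Lin41 hairpin. It measured 54.4, 57.0 and 58.4 CPM under the control hairpin, 60.9, 57.6 and 57.3 under the Lin41 hairpin and 52.95, 52.6 and 53 under the Pfkp hairpin. The sh-Lin41 libraries overlapped the controls, and the sh-Pfkp libraries lay just below them. With the Lin41 hairpin its log2 fold change was 0.05 (95% interval -0.04 to 0.14, edgeR adjusted p = 0.323). With the Pfkp hairpin it was -0.10 (SE 0.043, edgeR adjusted p = 0.0483), a call that was lost in 16 of 20 alternatives, including the replicate block over 9 libraries (log2 -0.10, edgeR adjusted p = 0.0585) and over the 6 libraries compared (adjusted p = 0.0708). It was 0.15 lower on the log2 scale in sh-Pfkp than in sh-Lin41 (edgeR adjusted p = 0.00294).

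The miR-290 and miR-302 families, abundant in embryonic stem cells, are known for targeting cell-cycle inhibitors, and the UTRs searched for all 3 brakes held a match to their shared seed. The letters searched were AGCACTT, on the mRNA strand only. They occurred at 2 places in Cdkn1a, 1 in Rbl1 and 1 in Rbl2, where 14.2%, 17.8% and 15.4% of 3′ UTRs of similar length held at least 1. They also occurred at 1 place each in Mbnl2 (29.5% of UTRs of similar length) and Trim71 (50.6%), and not in the UTRs searched for Foxj3, Psme3, Mbnl1 or Mbnl3. Of all 20998 UTRs 14.6% held at least 1. The microRNAs (RefSeq, GRCm38.p6) have the seed in capitals and the GENCODE M21 UTR stretches (GRCm38, in the sense of the mRNA) the match.
miR-294-3p: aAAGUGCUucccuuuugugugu
miR-302b-3p: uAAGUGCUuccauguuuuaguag
Cdkn1a UTR base 435, chr17:29099813-29099835, plus strand: tcctcagacctgaatAGCACTTt
Cdkn1a UTR base 1107, chr17:29100485-29100507, plus strand: taccgtgggtgtcaaAGCACTTa
Rbl1 UTR base 22, chr2:157147477-157147499, minus strand: cctttgcctgatcaaAGCACTTt
Rbl2 UTR base 1384, chr8:91123815-91123837, plus strand: tgtatttttcaataaAGCACTTa
These matches too are descriptions of the sequence only.

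Foxj3, which encodes the forkhead factor, was highest with the Pfkp hairpin. It measured 63.2, 63.5 and 60.0 CPM under the control hairpin, 76.85, 77.4 and 74.35 under the Pfkp hairpin and 64.4, 67.7 and 70.6 under the Lin41 hairpin. Every sh-Pfkp library was above every other library. Foxj3 rose by a log2 of 0.29 in sh-Pfkp (SE 0.0407, edgeR adjusted p = 2.63e-07) and by 0.12 in sh-Lin41 (SE 0.0411, edgeR adjusted p = 0.0151). The smaller rise was lost with DESeq2 (adjusted p = 0.0528), with limma on log2(FPKM + 1) (adjusted p = 0.323), without sh-ctrl replicate 3 (edgeR adjusted p = 0.0978) and without sh-Lin41 replicate 3 (edgeR adjusted p = 0.0972). The difference between the knockdowns was 0.18 (SE 0.0393, edgeR adjusted p = 0.00032) and was lost with limma on log2(FPKM + 1) (adjusted p = 0.0847).

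Psme3, whose protein caps the nuclear proteasome, was the target that fell with the Lin41 hairpin. It measured 269.8, 266.2 and 280.6 CPM under the control hairpin, 276.9, 267.8 and 271.8 under the Pfkp hairpin and 223.7, 226.6 and 221.7 under the Lin41 hairpin. The sh-Lin41 libraries lay below all 6 others. Its log2 fold change was -0.28 in sh-Lin41 (SE 0.0241, edgeR adjusted p = 1.30e-11) and -0.00088 in sh-Pfkp (95% interval -0.05 to 0.05, edgeR adjusted p = 0.977), and the knockdowns differed by 0.28 (SE 0.0239, edgeR adjusted p = 1.08e-11).

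Per unit of length, Psme3 had the highest mean of the 9 and Mbnl3 the lowest in every group. In sh-ctrl the order by mean FPKM was Psme3 (105.8), Cdkn1a (31.35), Trim71 (29.1), Foxj3 (13.8), Rbl1 (5.28), Rbl2 (3.80), Mbnl2 (3.07), Mbnl1 (2.90) and Mbnl3 (2.73). Only Mbnl2 and Mbnl1, and Mbnl1 and Mbnl3, overlapped as neighbours there. In sh-Lin41, Trim71 (17.3 FPKM) stayed behind Cdkn1a (33.1 FPKM), and Mbnl1 (8.44 FPKM) stood above Mbnl2 (5.30) and Rbl2 (4.79), which overlapped. In sh-Pfkp, Trim71 (36.9 FPKM) stood above Cdkn1a (29.6 FPKM), and Mbnl1 (4.95) overlapped Rbl1 (4.76).

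A length can be read from the deposited values by dividing each count by its FPKM, and it changes where the authors' quantification gave a gene's reads to longer or shorter transcripts. Trim71 came out at 9331 to 9333 bases in every library, where GENCODE M21 has a single transcript of 9332 bases, and Rbl1 at 4858 to 4866 bases, where it has one of 4862. Mbnl1 varied most: 4331, 5362 and 4186 bases in sh-ctrl, 4604, 4306 and 4895 in sh-Pfkp and 4165, 3942 and 4275 in sh-Lin41. The longest sh-ctrl value stood apart from the other control libraries, and sh-ctrl and sh-Lin41 overlapped. Groups did not overlap for 1 of the 9 genes in sh-Lin41 against sh-ctrl (Rbl2, 2.64% longer), for 1 in sh-Pfkp against sh-ctrl (Cdkn1a, a change of -4.31%) and for 3 in sh-Pfkp against sh-Lin41 (Mbnl1, 11.5% longer, Psme3, 2.27% longer, and Rbl2, a change of -4.20%). Among the 9136 genes with enough counts, 16.5%, 15.2% and 14.8% did not overlap in these comparisons. GENCODE M21 lists 7 protein-coding Mbnl1 transcripts of 2906 to 5655 bases in its basic set, so the value cannot name a transcript.

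**Figure D4:**
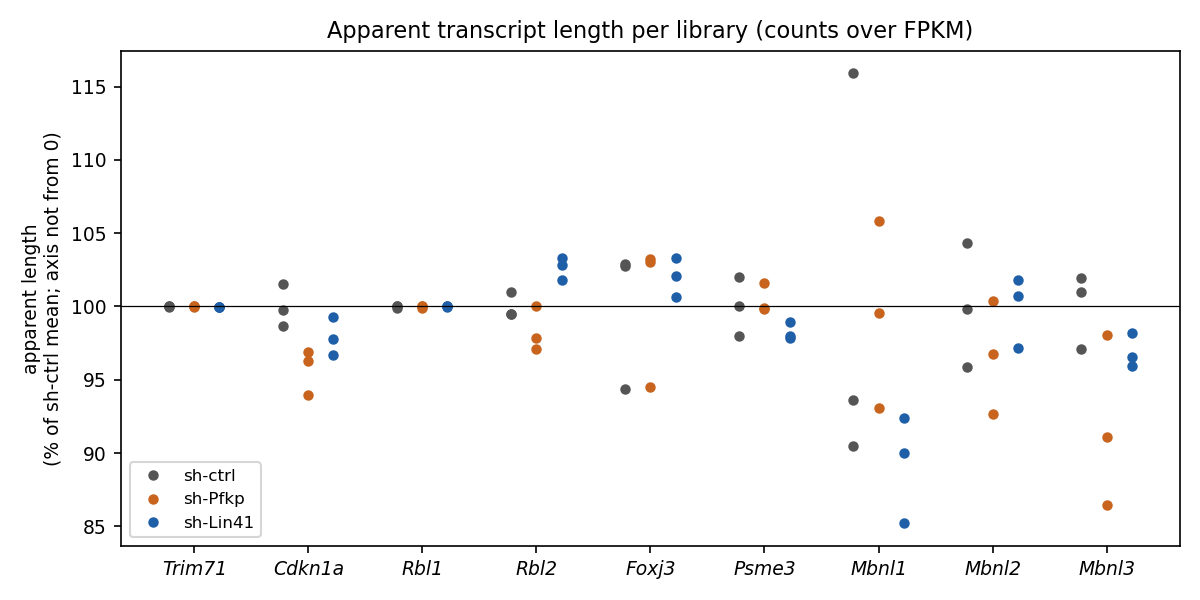
Apparent transcript length of the 9 genes in each library, as a percentage of the sh-ctrl mean (y axis, not from 0), by hairpin. Trim71 and Rbl1 do not move, and Mbnl1 spreads most, with sh-Lin41 (3942 to 4275 bases) below sh-Pfkp (4306 to 4895 bases).

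The genes whose pattern over the 9 libraries was most like that of Trim71 were Mt2 and Mt1, which encode metallothioneins, Tmem64, Ctnnal1 and the DNA methyltransferase gene Dnmt3a. Likeness was the root mean square difference of log2 CPM, each gene centred on its own mean, over 8456 genes of at least 10 CPM. The distance was 0.0631 for Mt2 (Pearson r 0.994), 0.0671 for Tmem64, 0.072 for Ctnnal1, 0.0906 for Mt1 and 0.1 for Dnmt3a. Mt2 averaged 177.3 CPM in sh-ctrl, 238.8 in sh-Pfkp and 114.6 in sh-Lin41. The 9 libraries fall into 3 groups, so these figures describe shared group differences. Nearest to Mbnl1 were the transcription factor genes Sall3 (0.143) and Sox1 (0.167) and the receptor gene Robo4 (0.175), with Sall3 at 19.6, 37.3 and 59.85 CPM in sh-ctrl, sh-Pfkp and sh-Lin41. Nearest to Rbl1 were Mllt3 (0.0515), the adhesion gene Ncam1 (0.0629) and the inhibin subunit gene Inhbb (0.0802), with Ncam1 at 36.6, 34.5 and 64.8 CPM. Nearest to Cdkn1a were Trim26 (0.0284), Niban2 (0.029) and Pdlim5 (0.0304), which like it varied little.

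Genes around Trim71 and its targets were counted with the same calls, to be read beside the 26.9% higher and 27.3% lower of all genes in sh-Lin41 and the 28.3% each way in sh-Pfkp. Medians are of log2 fold changes, which were near 0 for all genes. Of 3 TRIM-NHL relatives of Trim71 (medians 0.10 in sh-Lin41 and 0.11 in sh-Pfkp), 2 rose with the Lin41 hairpin (Trim32, log2 0.27, SE 0.0659, and Trim2, 0.10, SE 0.0336), and with the Pfkp hairpin Trim2 rose (0.57, SE 0.0323) and Trim3 fell (-0.35, SE 0.0921). Of 6 regulators and binding partners of Trim71 (medians -0.05 and 0.17), 2 rose and 3 fell in sh-Lin41, and 5 rose and 1 fell in sh-Pfkp. Lin28a, whose protein blocks let-7 maturation, moved in the same direction as Trim71 in both comparisons: -0.39 (SE 0.0225) in sh-Lin41 and 0.22 (SE 0.0218) in sh-Pfkp, with both edgeR calls made. Its paralog Lin28b fell in both (-0.54 and -0.16), and the stem cell factor gene Sox2 rose in both (0.32 and 0.23).

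Trim71 is described as acting with Argonaute, TNRC6 and nonsense-mediated decay proteins. Of 18 genes of mRNA repression and decay (medians -0.03 in sh-Lin41 and 0.08 in sh-Pfkp), 5 rose and 8 fell in sh-Lin41 and 9 rose and 1 fell in sh-Pfkp. Tnrc6b, which encodes a scaffold of microRNA repression, rose from 82.5 CPM in sh-ctrl to 151.9 in sh-Lin41 (log2 0.88, SE 0.0322, edgeR adjusted p = 6.72e-21) and to 101.0 in sh-Pfkp (log2 0.29). Its relative Tnrc6a rose in both (0.49 and 0.52). The poly(A)-binding protein gene Pabpc1 fell in sh-Lin41 (-0.25). Of the other mRNAs described as Trim71 targets, the immediate early gene Egr1 fell in both, from 67.2 CPM in sh-ctrl to 20.8 in sh-Lin41 (log2 -1.69, SE 0.0511) and 6.69 in sh-Pfkp (-3.33, SE 0.064). E2f7, a repressor of E2F targets, rose in sh-Lin41 (0.25, SE 0.0439) and was not called in sh-Pfkp (0.02).

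Around the cell-cycle brakes, CDK inhibitors other than Cdkn1a differed between the knockdowns. Of the 6 (medians 0.29 in sh-Lin41 and -0.22 in sh-Pfkp), 3 rose and none fell in sh-Lin41, with 3 not called, and none rose and 2 fell in sh-Pfkp, with 4 not called. Cdkn1b, the gene for p27, was at 28.1 CPM in sh-ctrl, 31.9 in sh-Lin41 (log2 0.18, edgeR adjusted p = 0.0195) and 23.3 in sh-Pfkp (-0.27, edgeR adjusted p = 0.00138). Cdkn2c (0.72) and Cdkn2a (0.39) rose in sh-Lin41 from 2.06 and 5.24 CPM. Set directly against each other, 4 of the 6 were lower in sh-Pfkp than in sh-Lin41 and 2 were not called, where 27.8% of all genes were called lower.

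The partners of the pocket proteins moved both ways. Of 16 E2F and DREAM genes tested (medians 0.11 in sh-Lin41 and 0.01 in sh-Pfkp), 7 rose and 6 fell in sh-Lin41 and 4 rose and 5 fell in sh-Pfkp. E2f1 fell in both (-0.45 and -0.42), E2f3 rose in both (0.38 and 0.32), E2f5 fell in sh-Lin41 (-0.56), and Dyrk1a, whose kinase promotes DREAM assembly, rose in both (0.29 and 0.40). Among 8 G1 cyclins and kinases (medians -0.05 and 0.08), 3 rose and 3 fell in sh-Lin41 and 5 rose and 3 fell in sh-Pfkp. Ccnd2, a D-type cyclin gene, was at 46.4 CPM in sh-ctrl, 87.8 in sh-Lin41 (log2 0.92) and 34.7 in sh-Pfkp (-0.42), while Ccne1 (-0.58 and -0.21) and Ccnd3 (-0.51 and -0.25) fell in both.

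Cdkn1a is a textbook p53 target. Of 12 other genes of the p53 axis (medians 0.10 in sh-Lin41 and 0.23 in sh-Pfkp), 6 rose and 2 fell in sh-Lin41, and 9 rose and 2 fell in sh-Pfkp. Trp53inp1 (0.35 and 0.47), Ccng1 (0.24 and 0.34) and Mdm2 (0.26 and 0.51) rose in both, and Btg2 rose in sh-Lin41 (0.48). Trp53 itself fell in sh-Lin41 (-0.23) and rose in sh-Pfkp (0.18), and Mdm4 fell in both (-0.11 and -0.10). Bbc3 fell in sh-Pfkp (-0.44), and Zmat3, Phlda3, Aen and Bbc3 were not called in sh-Lin41. The values for Cdkn1a were 0.05 and -0.10.

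Of 4 proteasome regulators listed beside Psme3 (medians 0.07 and 0.08), 2 rose and none fell in each knockdown. These were Psme4 (0.15 in both) and Psmf1 (0.16 and 0.26), where Psme3 itself fell in sh-Lin41. Psme1 (-0.004 and 0.016) and Psme2 (-0.054 and -0.025) were not called in either. Of the FOXJ relatives, Foxj2 rose in sh-Lin41 (0.28) and Foxj1 fell in sh-Pfkp (-0.69). Of 13 splicing regulators that act on exons shared with muscleblind proteins, 9 passed the filter on low counts. Their medians were -0.20 in sh-Lin41 and -0.06 in sh-Pfkp. In sh-Lin41, 1 of those 9 rose and 6 fell, among them Ptbp1, from 879.6 to 683.4 CPM (log2 -0.36, SE 0.0176), Esrp1 (-0.40) and Celf1 (-0.20). In sh-Pfkp, 2 rose and 5 fell, among them Celf5 (-0.74) and Celf2 (-0.67), neither of which was called in sh-Lin41.

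**Figure D5:**
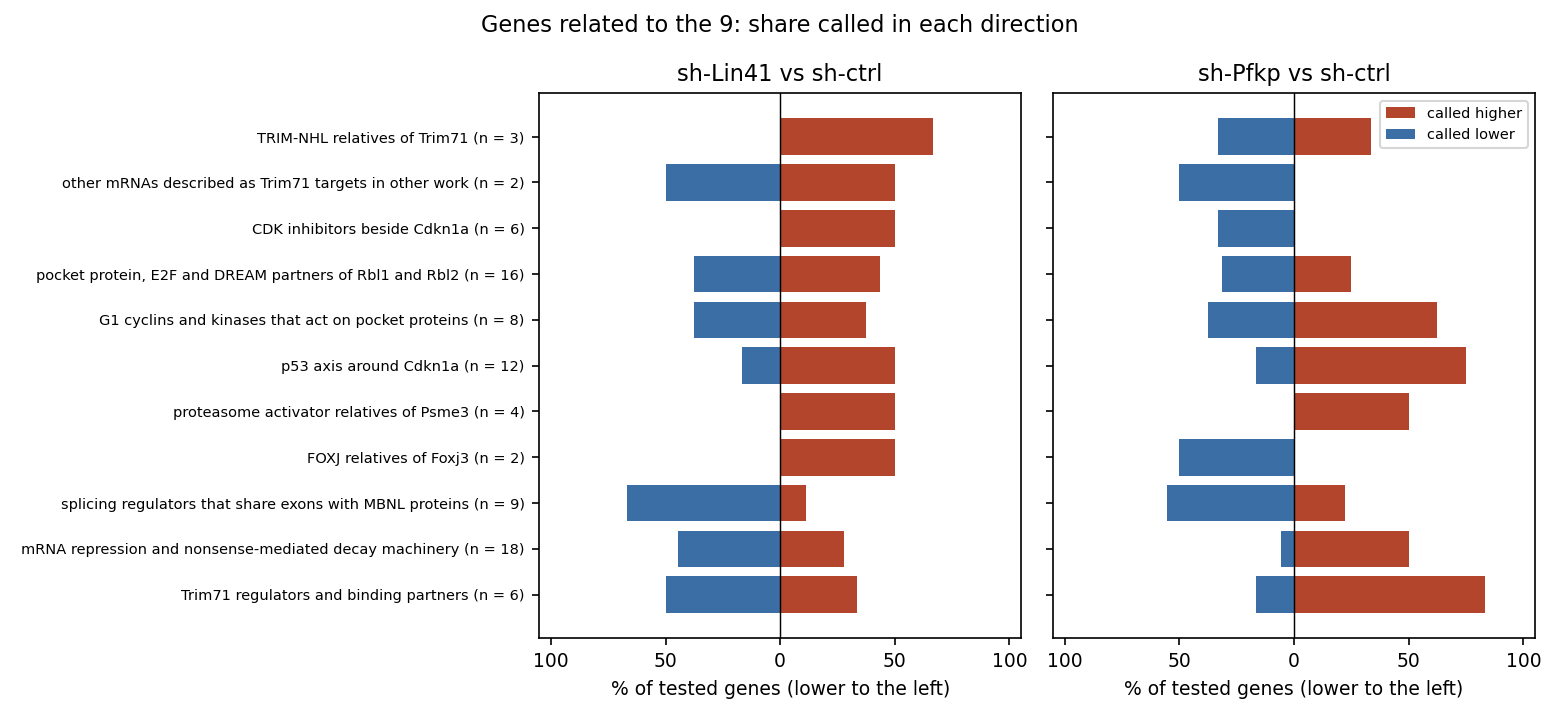
Share of tested genes called higher (right) or lower (left) in each list of related genes (x axis: percent of the list's tested genes), for sh-Lin41 and sh-Pfkp against sh-ctrl; n is the number tested, and lists of 2 to 4 genes move in large steps. Of 9 splicing regulators, 1 was called higher and 6 lower in sh-Lin41, and 2 and 5 in sh-Pfkp. Of 12 genes of the p53 axis, 6 were called higher and 2 lower in sh-Lin41, and 9 and 2 in sh-Pfkp. Of all genes, 26.9% were called higher and 27.3% lower in sh-Lin41, and 28.3% each way in sh-Pfkp. The list labelled proteasome activator relatives of Psme3 holds the 4 proteasome regulators given above.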

How the data were processed

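Per the submitters' processing notes, the authors used HISAT2, RSEM, StringTie 1.3.1, Bowtie2 2.2.8 and fastp 0.18.0. Genome build, annotation and strand setting: not given in the sources used here. Gene coordinates are therefore left out, and the UTR stretches carry those of GENCODE M21 (GRCm38). The authors deposited 1 column of whole-number counts for each library, which may be rounded RSEM estimates. FPKM stands beside the counts in the deposited tables, as do the authors' log2 ratio, p-value and FDR of each gene. The sh-ctrl columns were identical in both tables. Rows without a symbol (16, at most 186 counts in a library) entered no list.

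Counts were tested with edgeR 4.0.16 in R 4.3.3: filterByExpr, TMM, 1 quasi-likelihood fit over 9 libraries (residual degrees of freedom: 6), then p-values adjusted by Benjamini-Hochberg over all 13158 genes tested at 0.05. The edgeR steps were also run on simulated counts with the same spread set for every gene, as a check of the code and not of these results. Alternatives used DESeq2 1.42.0, limma 3.58.1 (log2 with a pseudocount of 1 for FPKM), other scalings and filters, the replicate block and each library left out. Apparent length used genes with at least 100 counts and an FPKM of 1 in every library, and was scaled per library by its median ratio to the gene mean.

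The genes and lists were chosen with earlier results of these data known. The rule named the 9 genes and, of each list, up to 3 called members in sh-Lin41 and 2 in sh-Pfkp with the smallest adjusted p. Some further list members are named where they went the other way or were not called. Lin54 was not analysed here. One gene that this rule names is not reported here. Hairpin groups share replicate numbers: over 8630 genes, deviations of same-numbered libraries correlated at 0.173, 0.357 and 0.545 between sh-ctrl and sh-Pfkp. Between the other groups same-numbered libraries correlated at -0.393 to 0.0586. Differently numbered libraries spanned as wide a range, from -0.462 (sh-ctrl 2 with sh-Pfkp 3) to 0.511 (sh-Pfkp 2 with sh-Lin41 3). The replicate block nevertheless used the number in every hairpin group, sh-Lin41 included. The labels do not say what a number marks.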

Additional observations from a re-analysis of the deposited data

How the results depend on the processing

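Of 27 comparisons of a gene between groups, 18 kept their call and direction under all 20 alternatives. No scaling moved the median of all genes by more than 0.06 on the log2 scale. With a 2-fold minimum, the described targets called higher and lower went from 5 and 1 to 1 and 0 in sh-Lin41, from 4 and 1 to 0 and 0 in sh-Pfkp, and from 2 and 4 to 0 and 1 between the knockdowns. All genes then numbered 268 higher and 292 lower in sh-Lin41, 297 and 560 in sh-Pfkp, and 193 and 398 between the knockdowns. With limma on log2(FPKM + 1), 2 targets were called higher in sh-Pfkp and 1 between the knockdowns. The 1 target called lower in sh-Pfkp, Cdkn1a, became 0 with RLE scaling, no filter, DESeq2, limma-voom, limma on FPKM, the 6 libraries alone and both replicate block fits, and 2 with upper-quartile scaling or totals only. It ranged from 0 to 1 with a library left out. The replicate block changed no other call of the 9 genes. Psme3 in sh-Pfkp, not called under any setting, turned sign to 0.0040 (RLE), 0.0030 (no filter), 0.00032 (1 CPM filter), 0.0041 (DESeq2), 0.0024 (6 libraries) and 0.0035 (paired, 6 libraries), and ranged from -0.013 to 0.026 with a library left out. Mbnl3, with 130 to 238 counts in a library, ranged from 0.012 to 0.27 in sh-Lin41, from -0.049 to 0.20 in sh-Pfkp and from -0.13 to 0.029 between the knockdowns with a library left out. The cause of these changes was not tested.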
